A study of Canis lupus familiaris with 15 samples.

Results

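CD86 and CD163, the macrophage state genes of a canine skin panel, were followed in the skin of 15 dogs. They are 2 of the 160 panel probes and were found through the RefSeq accession of each probe, NM_001003146.1 for CD86 and NM_001048020.1 for CD163, with the version ignored. The panel was counted with NanoString chemistry, in which colour-coded reporters bound to RNA are counted without amplification. RNA came from archival fixed skin biopsies. The groups were 7 dogs with discoid lupus erythematosus (DLE, 1 to 13 years old), 1 dog with mucocutaneous lupus (MLE, 6 years), 1 dog with CCLE, a chronic cutaneous lupus with suspicion of systemic disease (7 years), 1 dog with pyoderma, a bacterial skin infection (9 years), and 5 healthy dogs sampled at leg margins, whose ages the labels do not give. The labels also mark the pyoderma dog as a control, and the series text records that it had carried the diagnosis DICLE before an update. No treatment is given for any group, and the healthy samples had been used in an earlier series.

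CD86 is a surface protein of antigen-presenting cells. It binds CD28 on T cells to deliver the costimulatory signal and CTLA4, which restrains it, and it is made by dendritic cells, activated macrophages and activated B cells. CD163 is a scavenger receptor of the monocyte and macrophage lineage that takes up haemoglobin bound to haptoglobin. Glucocorticoids and interleukin 10 raise it in human monocytes, and it is widely used to mark resident and alternatively activated macrophages, including those of the normal dermis. The pair is therefore often read together, CD86 with inflammatory and CD163 with scavenging or resolving macrophage states.

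Of 16 macrophage and monocyte genes listed, only CD86 and CD163 matched a probe by symbol, so the cell type could not be checked against CD14, CD68 or CSF1R, which are not analysed here. No listed dendritic cell gene matched. In biopsies, fewer cells of a type and less RNA per cell cannot be told apart. The keratinocyte gene KRT5, a keratin of the basal epidermis, was well above background in every dog, at 26994 to 124870 normalised counts in DLE and 27024 to 81407 in healthy skin. The log2 change in DLE over healthy dogs was 0.41 for KRT5, 1.32 for KRT14, 0.80 for KRT1 and -1.24 for KLK7, the 4 measured keratinocyte genes. Only that of KRT14 had an adjusted p under 0.05 (edgeR, 0.0243). The KRT5 ranges therefore do not show that epidermal content was equal, which was not tested.

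Counts summed over the panel were 495839 to 587169 in the DLE dogs, 654993 in the MLE, 501396 in the CCLE and 430515 in the pyoderma dog, against 209889 to 675018 in the healthy dogs. The background limit (mean plus 2 SD of the 8 low control rows) was 13.6 to 30.0 counts. Different spike-in control rows were high in 2 sets of dogs. Set A held the 7 DLE dogs, the MLE dog and the pyoderma dog, and set B held the CCLE dog and the 5 healthy dogs. The labels do not say what the sets stand for, and between DLE and healthy dogs the set and the disease cannot be told apart. Only the CCLE dog (a lesion in set B) and the pyoderma dog (a lesion without lupus in set A) bear on the sets separately.

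CD86 was higher in DLE skin than in healthy skin and about as high in the 3 other lesions. The deposited CD86 counts in DLE dogs 1 to 7 were 866, 1524, 338, 1235, 1100, 859 and 1393, against 124, 339, 665, 287 and 230 in healthy dogs 1 to 5. After scaling by TMM, a method that sets libraries to a common level from probes of moderate change, these became 787, 1446, 666, 1008, 949, 858 and 1261 in DLE dogs and 195, 448, 405, 361 and 313 in healthy dogs. Every DLE dog lay above every healthy dog on this scale, with the lowest DLE value in dog 3 and the lowest healthy value in dog 1. CD86 averaged 997 ± 273 normalised counts in DLE dogs and 344 ± 97.5 in healthy dogs (SD, n = 7 and n = 5), a rise of log2 1.53 ± 0.27 (SE, edgeR quasi-likelihood test, adjusted p = 0.000385). Of the 154 probes tested, 37.7% were called higher and 26.0% separated the groups with DLE on top, so a rise was common on this panel, and CD86 had the 45th largest log2 change of the 154.

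CD163 was lower in DLE skin. Its deposited counts were 629, 791, 181, 775, 424, 475 and 915 in DLE dogs 1 to 7, against 368, 1960, 2409, 1036 and 1184 in healthy dogs 1 to 5. The normalised counts were 572, 751, 357, 633, 366, 474 and 828 in DLE dogs and 579, 2592, 1468, 1301 and 1611 in healthy dogs. Healthy dogs 2 to 5 lay above every DLE dog, whereas healthy dog 1 lay among them, so the groups overlapped through that 1 dog. CD163 averaged 569 ± 182 normalised counts in DLE dogs and 1510 ± 723 in healthy dogs (SD, n = 7 and n = 5), a fall of log2 -1.41 ± 0.34 (SE, edgeR adjusted p = 0.00226). Falls were called for 24.0% of the 154 probes, and CD163 had the 21st lowest log2 change. Healthy dog 1 had the lowest panel sum of all dogs and the largest share of counts in the control rows (33.3%), and without it the change of CD163 was -1.62 and that of CD86 was 1.38.

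**Figure D1:**
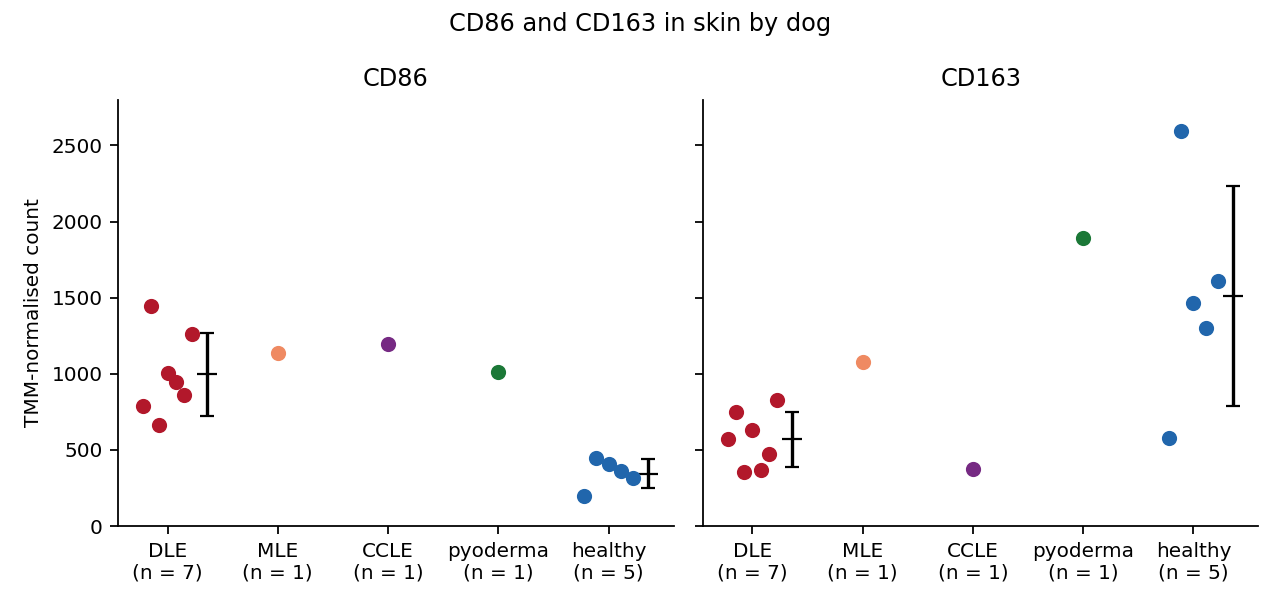
TMM-normalised counts of CD86 (left) and CD163 (right) in each dog, with 1 point per dog and the mean and SD of the DLE and healthy groups as black bars. CD86 is lowest in the 5 healthy dogs (195 to 448) and at least 666 in the 10 lesional dogs, while CD163 is 357 to 828 in DLE dogs and 579 to 2592 in healthy dogs.

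The choice of scaling moved both changes by a similar amount. Over 8 scalings the log2 change of CD86 ran from 0.85 (panel median) to 2.50 (RPL13A alone) and was called in 8 of the 8. That of CD163 ran from -2.07 (panel median) to -0.48 (RPL13A alone) and was called in 5 of the 8. It was not called with HPRT1 and RPL13A together (log2 -0.75, edgeR adjusted p = 0.109), with the summed control rows (-1.07, adjusted p = 0.114) or with RPL13A alone (adjusted p = 0.377). The 2 reference genes differed in this respect, since with HPRT1 alone the fall of CD163 was called (log2 -1.02, edgeR adjusted p = 0.0163). With HPRT1 and RPL13A together 53.9% of probes were called higher and 11.0% lower. Under TMM both reference genes averaged lower in DLE than in healthy dogs (HPRT1 614 against 811, RPL13A 15334 against 31090 normalised counts).

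These scalings also moved the median log2 change of all 154 probes, from -0.24 (panel median) to 1.36 (RPL13A alone), with 0.42 under TMM. Relative to that median, the log2 change of CD86 lay between 1.05 and 1.27 over the 8 scalings and CD163 between -1.88 and -1.63. Each scaling moves all probes of a dog by the same factor, so such narrow ranges follow from the arithmetic for any probe. No overlap in CD86 between DLE and healthy dogs was seen under 5 of the 8 scalings. With DESeq2 size factors and the panel total 6 of the 7 DLE dogs exceeded every healthy dog, and with the summed control rows 5 did. For CD163 the groups separated only with the panel median.

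**Figure D2:**
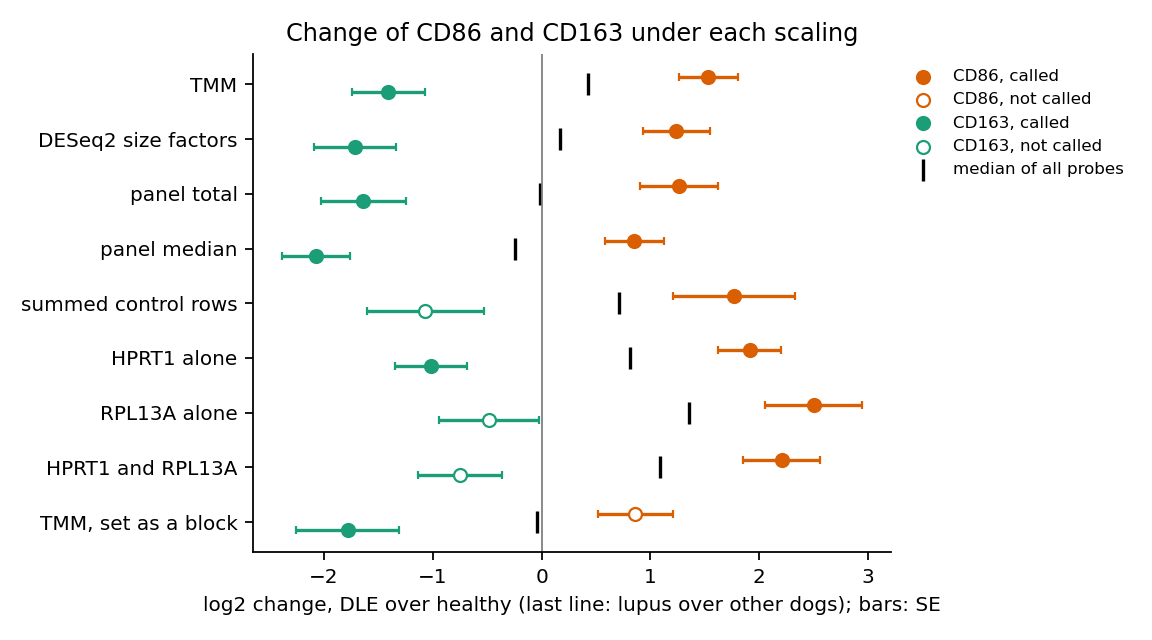
Log2 change of CD86 and CD163 in DLE over healthy dogs under each scaling, and in lupus over other dogs with the control set as a block (last line). Points are edgeR estimates with SE bars, filled where the adjusted p is under 0.05, and black ticks mark the median of all probes. CD86 lies right of 0 (0.85 to 2.50) and CD163 left of it (-2.07 to -0.48) under all 8 scalings, and both shift together with the median.

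The ratio of CD86 to CD163 within a dog does not depend on any scaling. Since the 2 probes may capture their targets unequally, the ratio compares dogs and not the abundance of the 2 transcripts. It was 1.38, 1.93, 1.87, 1.59, 2.59, 1.81 and 1.52 in DLE dogs 1 to 7, against 0.337, 0.173, 0.276, 0.277 and 0.194 in healthy dogs 1 to 5. The lowest DLE ratio (dog 1) was 4.09 times the highest healthy ratio (dog 1). On the log2 scale the ratio averaged 0.83 ± 0.30 in DLE dogs and -2.03 ± 0.40 in healthy dogs (SD, n = 7 and n = 5). The difference was 2.87 ± 0.20 (SE), a 7.29-fold higher ratio in DLE, in all 7 DLE dogs against all 5 healthy dogs (two-sided exact permutation p = 0.00253, the smallest that 792 splits allow).

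Such separation was frequent among probe pairs. Of the 11781 pairs of tested probes, 32.0% had ratios that did not overlap between DLE and healthy dogs, and 27.3% differed by more than the CD86 to CD163 pair did, with a median absolute log2 difference of 1.74. Taken against each of the other 153 probes, CD86 was higher without overlap in DLE dogs against 50 (32.7%) and lower against 8. CD163 was lower without overlap against 50 partners (32.7%) and higher against 0. The median probe was higher against 8 and lower against 12 partners.

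**Figure D3:**
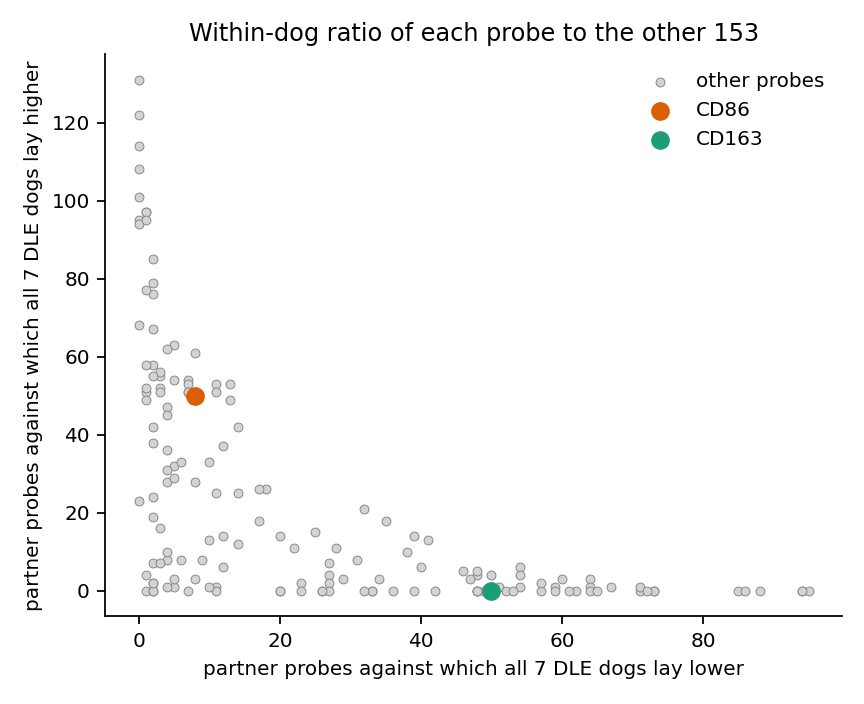
For each of the 154 tested probes, the number of partner probes (of 153) to which its within-dog count ratio was higher (vertical) or lower (horizontal) in all 7 DLE dogs than in all 5 healthy dogs. CD86 stands at 50 higher and 8 lower, CD163 at 0 higher and 50 lower, and many other probes lie farther out on either axis.

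Across all 15 dogs the ratio was ordered by diagnosis. The CCLE dog was highest at 3.18 (95% exact interval 2.84 to 3.57, counting error only), the 7 DLE dogs followed, and the MLE dog stood at 1.05 (0.979 to 1.13). The pyoderma dog had 0.535 (0.493 to 0.581), and the 5 healthy dogs were lowest. The intervals of the CCLE dog and of DLE dog 5 overlapped, and DLE dogs 2, 3, 6, 4, 7 and 1 formed a run in which each interval overlapped the next. The intervals of the MLE and pyoderma dogs overlapped none of their neighbours, and among healthy dogs those of dogs 1, 4 and 3 overlapped in turn, as did those of dogs 5 and 2. All 9 dogs with a lupus diagnosis thus lay above the 6 others, a separation shown by 11.4% of probe pairs.

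**Figure D4:**
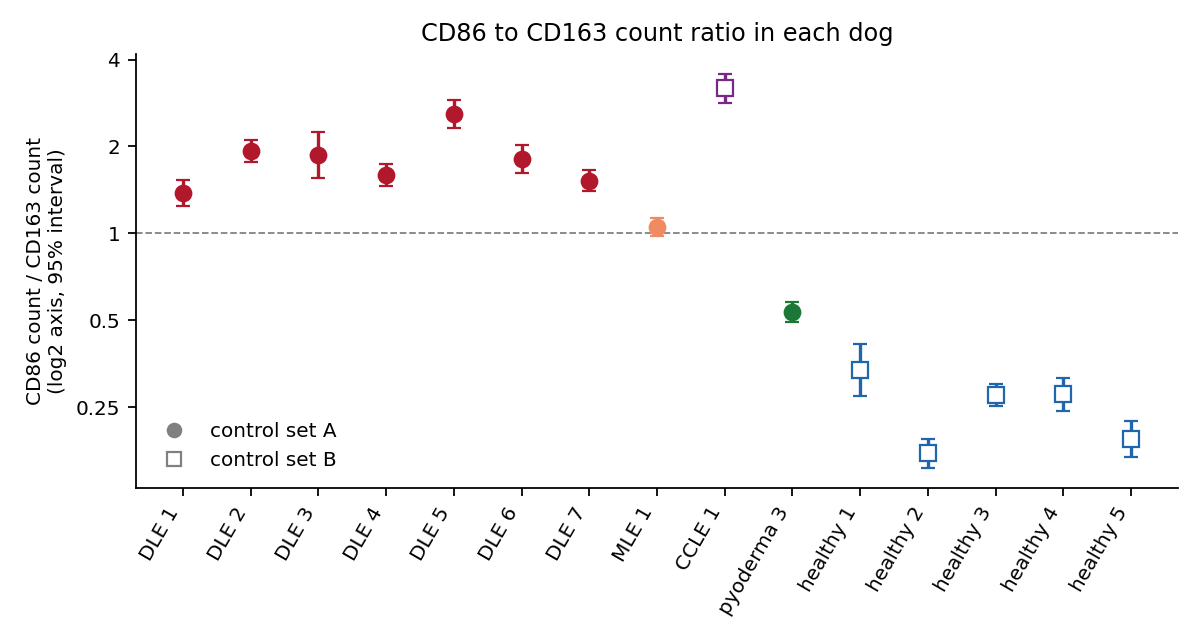
Ratio of the deposited CD86 count to the CD163 count in each dog on a log2 axis, with exact 95% intervals for counting error. Filled circles are dogs of control set A and open squares dogs of set B. The 9 lupus dogs lie between 1.05 and 3.18, the pyoderma dog at 0.535 and the healthy dogs between 0.173 and 0.337.

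The order held within each control set. In set A the 8 lupus dogs (7 DLE and 1 MLE) lay above the pyoderma dog, by log2 1.64 on average, and in set B the CCLE dog lay above all 5 healthy dogs, by log2 3.70 over their mean. A pattern of this kind, in either direction, was seen for 17.5% of probe pairs. With the set as a block the log2 ratio was 2.64 higher in lupus dogs than in the others (p = 0.037 by two-sided exact permutation inside each set, the lowest possible with 54 choices). This value rests on the single CCLE and pyoderma dogs. The pyoderma and healthy dogs, which differ in set as well as in disease, differed by log2 1.13.

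The 2 genes behaved differently in the 3 single lesions, which have no replicate and no test. In the CCLE dog CD86 stood at 1198 normalised counts and CD163 at 377. This CD86 value was above all healthy dogs and 3.48 times their mean, and it lay inside the DLE range. Its CD163 value was below all 5 healthy dogs, at 0.249 of their mean, and above 2 of the 7 DLE dogs. CD86 of the CCLE dog lay above all healthy dogs under 8 of 8 scalings, and its CD163 below all of them under 5 of 8.

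In the MLE dog CD86 stood at 1136 normalised counts and CD163 at 1080. Its CD86 was inside the DLE range and its CD163 was above all 7 DLE dogs (1.90 times their mean) and above 1 of 5 healthy dogs. The lower ratio of this dog against DLE thus came with a higher CD163 count at a CD86 level 1.14 times the DLE mean.

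In the pyoderma dog CD86 stood at 1010 normalised counts, 1.01 times the DLE mean and above all 5 healthy dogs. Its CD163 stood at 1889, above all 7 DLE dogs and above 4 of 5 healthy dogs. CD86 was thus high in this lesion without lupus too, while its CD163 lay above that of all 9 lupus dogs. Under all 8 scalings CD163 of both the MLE and the pyoderma dog lay above every DLE dog. All 10 lesional dogs lay above all 5 healthy dogs in CD86 under 5 of the 8 scalings.

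With the control set as a block, CD163 was called lower in lupus than in other dogs (log2 -1.78 ± 0.47, SE, edgeR adjusted p = 0.00993), where 3.90% of probes were called lower and 22.1% higher. CD86 was not called (log2 0.86 ± 0.35, edgeR adjusted p = 0.0836). In set A, CD86 averaged 1014 normalised counts in 8 lupus dogs against 1010 in the pyoderma dog, and CD163 averaged 633 against 1889. In set B the CCLE dog lay log2 1.85 above the healthy mean in CD86 and log2 1.85 below it in CD163 (a log2 difference of -1.85). For CD86 the difference was thus present in set B and near 0 in set A, where the only dog without lupus also had a lesion.

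**Figure D5:**
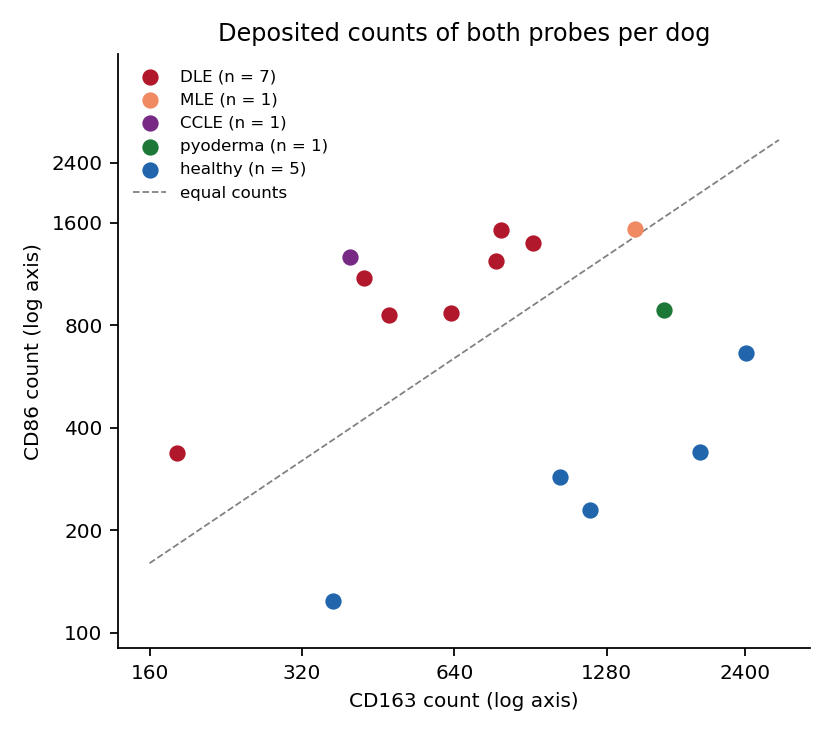
Deposited CD86 counts against CD163 counts in each dog on log axes, coloured by diagnosis. The dashed line marks equal counts as a visual guide only. Lupus dogs lie above the line, with the MLE dog next to it at 1533 and 1457 counts, and the pyoderma and healthy dogs lie below it.

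Over the groups, the order of CD86 levels was CCLE (1198 normalised counts), MLE (1136), pyoderma (1010), DLE (997 ± 273) and healthy (344 ± 97.5). The 3 single dogs lay within 1 SD of the DLE mean and above every healthy dog. The order of CD163 was pyoderma (1889), healthy (1510 ± 723), MLE (1080), DLE (569 ± 182) and CCLE (377). The pyoderma and MLE dogs lay within 1 SD of the healthy mean, and the CCLE dog lay inside the DLE range. Both probes were above the background limit in every dog, by 4.46 times (healthy dog 1) to 91.0 times (DLE dog 4) for CD86 and by 9.45 times (DLE dog 3) to 105 times (healthy dog 3) for CD163.

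Within the 7 DLE dogs the members varied 2.17-fold (CD86) and 2.32-fold (CD163) from the lowest to the highest normalised count, and their ratio varied 1.88-fold. Between CD86 and CD163 in these dogs Pearson r was 0.79 (exact permutation p = 0.0377) and Spearman rho was 0.82 (exact p = 0.0341), which did not pass adjustment over the 8 relations computed (adjusted p = 0.302 and 0.273). Both values share the scaling of the dog, and r was 0.60 without the 2 dogs farthest from the median CD86. The log2 ratio showed no relation that passed with age (r = -0.45, rho = -0.39, exact p = 0.309 and 0.396), and r with age was -0.53 without the 2 dogs farthest from the median. Nor did it with CXCL10, IFNG, TNF, IL10, MS4A1 or CCL2, whose r ran from -0.62 (IL10, exact p = 0.13) to 0.34 (CCL2, exact p = 0.487), with adjusted p from 0.468 upward and rho from -0.57 to 0.32. Without the 2 dogs farthest from the median of each gene these r ran from -0.35 (IL10) to 0.71 (IFNG).

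The probes whose levels followed CD86 most closely over the 15 dogs were XM_547752.2, which has no symbol here (Spearman rho = 0.90), CCL5, a chemokine of T and NK cells (rho = 0.88), and B2M, the light chain of MHC class I (rho = 0.88). Within the 7 DLE dogs these rho values were 0.96, 0.82 and 0.64. The most opposite probe was XM_005618038.3 (rho = -0.90). For CD163 they were CCL2, the chemokine that attracts monocytes (rho = 0.80), XM_537722.6 (0.78) and FMO1, a flavin monooxygenase (0.71), with 0.57, 0.71 and 0.82 within DLE. The most opposite was XM_849766.5 (rho = -0.86). FMO1 fell in DLE skin (log2 -0.89, edgeR adjusted p = 0.00347), but had at most 20.4 normalised counts in any healthy dog. It had 5.91 to 12.2 in DLE dogs. These levels were near or under the background limits given above, so its call and its rho within DLE rest on values near background. Between CD86 and CD163 themselves rho was -0.19 over 15 dogs. These values are descriptive, since the points share each dog's scaling and fall into diagnostic groups.

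CCL2 ran from 830 to 3427 normalised counts in DLE dogs, against 1879 to 8719 in healthy dogs, with 3429 in the MLE, 2031 in the CCLE and 3761 in the pyoderma dog. Its change of log2 -1.04 ± 0.46 was not called (SE, edgeR adjusted p = 0.0631). The pyoderma dog stood above all DLE dogs in CCL2 as well as in CD163, and the MLE dog stood level with the highest DLE dog.

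Among genes of classical macrophage activation, 5 of the 7 measured rose in DLE dogs (IFNG, TNF, IL12B, CXCL10 and CCL5), 0 fell and 2 (IL1B and IL6) were not called, with a median log2 change of 1.81. Over all 154 probes 37.7% were called higher and 24.0% lower (61.7% in all), with a median of 0.42, and the genes were listed with earlier results known. The chemokine CXCL10, which is induced by interferons, averaged 8510 ± 7340 normalised counts in DLE and 67.3 ± 31.4 in healthy dogs (SD, n = 7 and n = 5), a rise of log2 6.98. CCL5 rose by log2 5.67. IFNG, the type II interferon that activates macrophages, rose by log2 2.31, and TNF, a cytokine of activated macrophages and T cells, by log2 1.81. IFNG was above the background limit in 7 of 7 DLE dogs but in 1 of 5 healthy dogs, so its healthy values lay mostly at background. With the set as a block, which compares lupus with other dogs, IFNG was not called (log2 0.97, edgeR adjusted p = 0.159). IL12B, a shared subunit of interleukins 12 and 23, was not called under panel median scaling (log2 0.66, edgeR adjusted p = 0.117). The only gene of the costimulation list that matched a probe by symbol, CD40LG, which activates antigen-presenting cells through CD40, rose by log2 1.89 (edgeR adjusted p = 0.000566). CD40LG was above the background limit in 7 of 7 DLE dogs and in 1 of 5 healthy dogs.

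Among genes of alternative activation, 0 of 8 rose, 3 fell (CCL24, PPARG and IL4) and 5 were not called, with a median log2 change of -0.58, beside the 37.7% called higher, 24.0% called lower and median of 0.42 over all probes. CCL24, an eosinophil chemokine, averaged 53.4 ± 31.3 normalised counts in DLE and 392 ± 268 in healthy dogs (SD, n = 7 and n = 5). PPARG, a lipid-sensing nuclear receptor also found in fat and sebaceous cells, averaged 179 ± 180 in DLE and 1350 ± 1219 in healthy dogs. Both fell under all 8 scalings. With the set as a block, which compares 9 lupus with 6 other dogs, neither was called (edgeR adjusted p = 0.242 and 0.228). The pyoderma dog, 1 of those others, had 75.1 normalised counts of CCL24 and 338 of PPARG, both below every healthy dog. CCL17, a chemokine that attracts T cells, had a log2 change of 1.71 ± 0.96 (SE) and was not called (edgeR adjusted p = 0.138). The count of 3 includes IL4, a cytokine of T helper cells, which lay above the background limit in 1 of 7 DLE dogs and 1 of 5 healthy dogs, and its direction turned under RPL13A scaling (log2 0.24) and with the set as a block (0.06). Its call ended when any 1 of 9 of the 12 dogs was left out (DLE dogs 1, 2, 5, 6 and 7 and healthy dogs 1, 3, 4 and 5; edgeR adjusted p from 0.0523 to 0.114).

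IL10 and IL6, the measured members of the list of CD163 ligands and inducers, were not called. IL10, an anti-inflammatory cytokine, had 90.6 to 174 normalised counts in DLE dogs and 104 to 164 in healthy dogs. Its log2 change was 0.06 ± 0.24 (SE, edgeR adjusted p = 0.839), and it ran from -0.63 to 1.03 over the 8 scalings, with calls under 3 of them. IL6 changed by log2 -1.44 ± 0.88 (edgeR adjusted p = 0.17).

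Of 9 measured genes of monocyte recruitment, 3 rose (CCL3, CCL4 and CCL5), 1 fell (CXCL12) and 5 were not called (CCL2, CCL7, CCL8, CCL13 and CX3CL1), with a median of 0.55. These shares were no higher than the 37.7% called higher among all probes and the 24.0% called lower, and the median of all probes was 0.42. CCL5 is described above. CCL4, a chemokine of activated macrophages and lymphocytes, rose by log2 1.82, and CCL7, a monocyte chemokine related to CCL2, had a log2 change of -1.28 ± 0.77 (SE) that was not called. CXCL12, a stromal chemokine, averaged 2060 ± 946 normalised counts in DLE and 8186 ± 1362 in healthy dogs (SD, n = 7 and n = 5). With the set as a block, in lupus against other dogs, CCL4 (log2 0.92, edgeR adjusted p = 0.332) and CXCL12 (log2 -0.92, adjusted p = 0.193) were not called. In the same fit the direction of CCL3 turned (log2 -0.19). CCL3 was called under 5 of the 8 scalings, and its call ended when any 1 of 6 dogs was left out (DLE dogs 2 and 4 and healthy dogs 1 to 4; edgeR adjusted p from 0.0586 to 0.0699). The CCL3 and CCL4 probes may bind each other's transcripts, so their values are uncertain.

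Markers of B, T and NK cells were also called higher in DLE dogs, as were 37.7% of all 154 probes. MS4A1, which encodes the B cell protein CD20, ran from 81.6 to 300.3 normalised counts in DLE dogs against 14.2 to 21.8 in healthy dogs, and was the only one of 5 listed B cell genes that matched a probe by symbol. MS4A1 was above the background limit in 7 of 7 DLE dogs but in 1 of 5 healthy dogs. It stood at 474 in the CCLE and 75.6 in the MLE dog. In the pyoderma dog MS4A1 was at 11 counts, under the background limit of 18.6, while CD86 was as high as in DLE. FOXP3 of regulatory T cells and KLRD1 of NK and cytotoxic T cells, the 2 of 11 listed T and NK cell genes that matched by symbol, summed to 114 to 444 normalised counts in DLE dogs, against 46.3 to 67.8 in healthy dogs and 79.7 in the pyoderma dog. FOXP3 was above the background limit in 6 of 7 DLE dogs and 0 of 5 healthy dogs, and KLRD1 in 7 of 7 and 4 of 5. The part of B and T cells in the CD86 rise of DLE was not tested.

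Stromal markers fell with CD163 in DLE dogs but did not follow it in every single lesion. COL1A1, a dermal collagen, and CXCL12, the 2 of 7 listed fibroblast genes that matched by symbol, both fell in DLE dogs (log2 -1.17 and -1.99), where 24.0% of the 154 probes were called lower. The summed level of these 2 genes, which is mostly COL1A1, was 22273 to 52352 normalised counts in DLE dogs, against 42367 to 143368 in healthy dogs. It was 104287 in the MLE, 86226 in the CCLE and 67600 in the pyoderma dog. In the CCLE dog COL1A1 was inside the healthy range (83186, against 33599 to 135202 normalised counts), whereas CXCL12 was below every healthy dog (3040, against 5984 to 9672). CXCL12 was also below every healthy dog in the MLE (3410) and pyoderma (3023) dogs, although CD163 of the pyoderma dog lay above 4 of 5 healthy dogs. COL1A1 was called under 4 of the 8 scalings and CXCL12 under 8. With the set as a block, in lupus against other dogs, neither was called (log2 -0.24 and -0.92, edgeR adjusted p = 0.804 and 0.193). The call of COL1A1 in DLE also ended without healthy dog 2 (log2 -0.80, edgeR adjusted p = 0.0717). The part of dermal content in the CD163 difference was not tested, and the body site of the lesions is not given in the labels.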

How the data were processed

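The deposited table held whole counts per probe as made by the authors, for 160 panel probes and 14 spike-in control rows in 15 dogs. Its upstream software, background step and scaling were not given in the sources used here. Samples were counted as separate dogs, as the case and margin numbers imply; if any were not, the p-values measure a partly technical spread. No 2 samples of a group agreed within counting noise (chi-square over degrees of freedom at least 133), so none was taken as a library deposited more than once; this does not show that they are separate dogs. Accessions were matched to a RefSeq gene table (UU_Cfam_GSD_1.0) for names alone, and 72 of the 160 probes had a symbol. Lists were matched by symbol, so listed genes may be among the other 88 probes. No sequences or coordinates are given, because no file names a genome build.

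HPRT1 and RPL13A were left out of the tests. TMM factors came from all panel probes and all dogs, filterByExpr kept 154 of 158 probes, and glmQLFit with glmQLFTest (edgeR 4.0.16, R 4.3.3) compared 7 DLE with 5 healthy dogs, two-sided, with Benjamini-Hochberg adjustment over the 154 and a threshold of 0.05. SE values are the log2 change divided by the root of F. Normalised counts are counts over the TMM-scaled library size times its mean. The ratio is CD86 over CD163 count with no pseudocount, tested by exact permutation with the smaller tail doubled. Its intervals are exact binomial (95%), cover counting error only, and give the precision at these depths. Spike-in scaling used the summed control rows, because none of them was high in every dog. limma 3.58.1 and DESeq2 1.42.0 served as alternatives, as did each scaling, background subtraction, the set and replicate blocks and leaving out each dog. The set block compared the 9 lupus dogs with the 6 others, not DLE with healthy dogs, and rests on the single CCLE and pyoderma dogs. A call that ended there can therefore reflect the changed comparison as well as the set. The members, lists and tests were chosen with earlier results of these data known. Scaling by HPRT1 alone and RPL13A alone and the permutation test per gene were added after the data were seen. Genes were named by a rule: both members in every dog, the measured genes of each list as counts, values for up to 4 of each list by size of change, and for each member the 3 probes with the highest and the 1 with the lowest rho. KRT5 (a tissue check), IL12B, the single-dog values of IL1B and IL6, and genes named for a changed call fall outside it and were chosen after their values were seen. Counts of list genes are read beside the same counts over all probes.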

Additional observations from a re-analysis of the deposited data

How the results depend on the processing

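The higher CD86 to CD163 ratio in DLE dogs kept its direction under all 7 alternatives and 12 omissions. The alternatives gave 2.64 to 3.02 on the log2 scale, where 2.64 came from the set block, in lupus against other dogs. With any 1 dog left out the difference of DLE from healthy dogs was 2.74 to 2.98. With the replicate block it was 2.91 (exact permutation p = 0.0625, the smallest that sign flips of 5 pairs allow), so that test could not pass. Case and margin numbers were not taken as pairs, since the labels give no shared animal and the deviations of same-numbered DLE and healthy dogs correlated at -0.12 for number 4 and at 0.12 to 0.18 for the other numbers, with 3 of 5 correlating best with their own number. With that block CD86 and CD163 (-1.42) were both called, 85 probes were called against 95, and the calls of CCL3, CCL4, IL4, KIT and MS4A2 ended (edgeR adjusted p = 0.0507, 0.0589, 0.196, 0.105 and 0.176). The call of CD86 ended with the set block (0.86, lupus against other dogs), and its value in DLE ranged from 1.38 to 1.64 with 1 dog left out. The call of CD163 ended under reference gene scaling (-0.75), spike-in scaling (-1.07) and RPL13A alone (-0.48), and its value ranged from -1.62 to -1.12 with 1 dog left out (without healthy dogs 1 and 2). The number of calls fell to 40 with the set block (34 higher, 6 lower) and was 74 to 107 otherwise. Both reference genes gave 83 higher and 17 lower calls. The share of calls that were higher was 61.1% under TMM, 89.6% with RPL13A, 71.9% with HPRT1, 77.0% with spike-ins, 51.0% with the panel total, 41.1% with the panel median and 85.0% with the set block. Directions turned for CCL3 (-0.19) and KRT14 (-0.031) with the set block, IL4 under RPL13A alone (0.24) and the set block (0.062), KIT under RPL13A alone (0.24) and MS4A2 under reference gene scaling (0.068) and RPL13A alone (0.40). The cause was not tested. Both CD86 and CD163 were above background in every dog, but single counts as low as 124 and 181 leave wider intervals in healthy dog 1 and DLE dog 3. An effect of depth on the 2 genes was not tested.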

Other observations

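Mast cell genes, which share the dermis with CD163-bearing macrophages, took another course than CD163 in the MLE dog. KIT, the stem cell factor receptor of mast cells and melanocytes, and MS4A2, a chain of the IgE receptor, summed to 406 to 676 normalised counts in DLE dogs, against 697.5 to 980 in healthy dogs. The sum was 170 in the MLE, 443 in the CCLE and 748 in the pyoderma dog. The CCLE sum was thus inside the DLE range and the pyoderma sum inside the healthy range, as for CD163. Taken singly, the 2 genes departed from this in part. KIT of the pyoderma dog (206) lay below all DLE (211 to 416) and healthy dogs (327 to 618). In the CCLE dog KIT (330) was inside both ranges, and MS4A2 (113) was below every DLE dog. MS4A2 stood at 542 in the pyoderma dog, above all DLE (157 to 279) and healthy dogs (278 to 445), and at 43.7 in the MLE dog, below all of them. The MLE dog, whose CD163 was above all DLE dogs, was thus the lowest in both mast cell genes. Both falls in DLE (log2 -0.70 for KIT and -0.68 for MS4A2) were called under TMM in edgeR (adjusted p = 0.0182 and 0.0228), where 24.0% of the 154 probes were called lower. Each was called under 4 of the 8 scalings. Both turned direction under RPL13A alone (0.24 and 0.40), MS4A2 also with both reference genes (0.068). With the set as a block, in lupus against other dogs, KIT was not called (log2 -0.05, edgeR adjusted p = 0.952) and MS4A2 was (log2 -1.55, edgeR adjusted p = 0.0181). The call of KIT also ended without healthy dog 5 and that of MS4A2 without healthy dog 1 (edgeR adjusted p = 0.0569 and 0.0687).

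IL1B, an inflammatory cytokine of myeloid cells, stood at 710 normalised counts in the MLE dog, above all DLE dogs (18.0 to 282) and healthy dogs (32.7 to 131). In the CCLE dog, which had the highest CD86 to CD163 ratio, IL1B was at 20.8 and IL6 at 30.3 normalised counts, both below all healthy dogs. The deposited counts were 22 and 32 against a background limit of 17.9 in that dog, so the IL1B value was near background. IL1B was above the limit in 4 of 5 healthy dogs.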
